A study of Mus musculus with 17 samples.

Results

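Of the 27289 genes that were assembled de novo from RNA of mouse male germ cells, 2223 were isolated single-exon loci. All transcripts of such a locus have 1 exon, and its span lies more than 5000 bp from every other assembled gene on either strand. The rule used positions in the assembly and no stage level, although which loci were assembled, and with which exons and neighbours, depends on the reads. RNA had been taken from 5 populations of sorted testis cells with 3 libraries each, namely spermatocytes in leptotene/zygotene (LZ) and in pachytene/diplotene (PD), round spermatids (RS), and elongating spermatids of an early (EES) and a late (LES) stage. All came from wild-type C57BL/6JRj males of 3 months and were sorted by flow cytometry on the DNA dye Hoechst together with SYTO 16. The other 2 of the 17 samples were single libraries. RS23 came from round spermatids of juvenile mice of 23 dpp, sorted on Hoechst alone. PrmES came from elongating spermatids, sorted by Prm1-EGFP according to the title. The characteristics of these 2 give the age of 3 months and a wild-type genotype, which differs from their titles, and the titles were followed. The sources used here do not say whether libraries of a stage came from separate animals, and the p-values cover only the variation among these libraries, part of which may be technical.

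Most mammalian genes have introns. Single-exon transcripts come from genes that are naturally intronless, from retrocopies, which are made when a processed mRNA is copied back into the genome, and from non-coding transcription. Many retrocopies decay into processed pseudogenes, and some become working retrogenes that are transcribed in the testis. During the pachytene stage the X and Y chromosomes are silenced as the sex body, and in elongating spermatids histones give way to transition proteins and protamines.

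The loci were short and lay far apart. Each had 1 transcript, the median exon length was 661 bp with quartiles of 378.5 and 1429 bp, and the range ran from 200 to 56580 bp. Other single-exon loci had a median of 1188.5 bp and isolated multi-exon genes of 1763 bp. The median distance to the next assembled gene was 28538 bp. Of the 2223 loci, 1138 were on the plus strand and 1085 on the minus strand. The X chromosome held 134 of them (6.03%, against 3.12% of all de novo genes) and the Y chromosome 45 (2.02%, against 0.586%). At the edge of the distance rule, MSTRG.14647 and MSTRG.11576 were left out at 4996 and 4999 bp, and MSTRG.13644 and MSTRG.10857 were kept at 5001 and 5004 bp. MSTRG.13644 had mean levels of 5.46 RPKM in LZ and 0.195 RPKM in PD, while MSTRG.14647 reached at most 0.716 RPKM, in RS. RPKM counts the reads for each kilobase of exon in every M (mega) reads of a library.

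Set against the GENCODE M21 annotation of GRCm38, 826 of the 2223 loci overlapped an exon of a reference gene on their own strand. Any overlap was enough to give a locus the class of that gene, and in 607 loci it covered at least 50% of the locus. Levels given under a gene name are those of the whole locus. Pseudogenes were the largest of these classes with 522 loci, of which 469 were of a processed and 50 of an unprocessed kind. They made up 23.5% of the isolated single-exon loci, 6.79% of the other single-exon loci and 4.93% of the isolated multi-exon genes. Protein-coding exons were overlapped by 219 loci, exons of lncRNA genes, or of genes GENCODE labels TEC, by 69 and exons of small RNA or other genes by 16. Another 171 lay in an intron on the same strand, 203 in an intron of a gene on the opposite strand and 100 on an exon of the opposite strand. Whether the libraries keep the strand is not stated in the sources used here, so loci opposite to a gene and reads of that gene cannot be told apart. The remaining 923 loci met no reference gene. Their median distance to the nearest reference gene was 12236 bp, and 402 of the 923 lay within 10 kb of one.

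Loci with a reference exon often held a stretch nearly the same as another gene in sequence. Of the 826 loci with a reference exon, 499 (60.4%) had a stretch of at least 100 bp that matched a transcript of another reference gene at 98% identity or more. This held for 404 of the 522 pseudogene loci and for 83 of the 219 protein-coding loci. Stretches of 90 coding bases are printed for 4 loci to show how far a locus and the intron-bearing gene it resembles can be told apart by reads. Each is the run of 90 coding bases with the most mismatches in the alignment, in lower case with mismatched bases in capitals, 5′ to 3′. Sequences are from GENCODE M21 transcripts, and positions are in GRCm38.
Gpx4-ps2 in MSTRG.1933 (chr10:45875366-45875455, + strand): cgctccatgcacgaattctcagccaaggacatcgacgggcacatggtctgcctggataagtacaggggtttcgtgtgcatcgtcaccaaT
Gpx4: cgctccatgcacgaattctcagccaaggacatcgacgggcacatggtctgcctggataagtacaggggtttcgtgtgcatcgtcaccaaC
Gm4739 in MSTRG.1784 (chr10:26108305-26108394, + strand): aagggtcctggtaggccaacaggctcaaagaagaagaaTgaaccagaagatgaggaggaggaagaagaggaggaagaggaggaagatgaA
Hmgb2: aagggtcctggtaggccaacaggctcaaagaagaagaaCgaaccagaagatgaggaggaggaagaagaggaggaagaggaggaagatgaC
Dynlt1-ps1 in MSTRG.21333 (chr6:135349660-135349749, - strand): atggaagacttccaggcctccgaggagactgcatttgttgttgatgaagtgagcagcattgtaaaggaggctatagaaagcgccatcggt
Dynlt1a: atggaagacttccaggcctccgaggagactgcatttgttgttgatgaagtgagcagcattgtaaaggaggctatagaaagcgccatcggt
Gm4810 in MSTRG.6616 (chr13:64510176-64510265, + strand): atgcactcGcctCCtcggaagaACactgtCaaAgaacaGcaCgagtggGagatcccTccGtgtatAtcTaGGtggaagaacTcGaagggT
Snw1: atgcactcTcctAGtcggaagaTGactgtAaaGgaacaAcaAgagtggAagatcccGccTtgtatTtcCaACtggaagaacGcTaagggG

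Gpx4-ps2 differed from Gpx4 at 2 of 762 aligned bases, Gm4739 from Hmgb2 at 2 of 633, and Dynlt1-ps1 from Dynlt1a at 0 of 342. Gm4810 was farther from Snw1, with mismatches at 89 of 1000 bases. Most reads from the first 3 loci would match the other gene equally well over these stretches, so their levels are uncertain. How reads with several matching places were counted is not stated in the sources used here.

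The loci also held protein-coding genes with no such copy, 136 in number. For 45 of these, RefSeq's promoter table (GRCm38.p6) has a start site within 500 bp of the 5′ end of the locus. Its promoters run from 250 bases before to 50 after the start site. They were searched on both strands for a TATA box (TATAAA), a cAMP response element (CRE, TGACGTCA), a CCAAT box (CCAAT) and a GC box (GGGCGG). The CRE stood in 2 of the 45, the promoters of Nsmce3 and Tbcc, and in 1.79% of all 32851 promoters of the table. The GC box stood in 18 of the 45 (40%), against 35.7% of all. Among promoters of loci with their highest mean in PD or RS it stood in 10 of 19, among those highest in EES or LES in 2 of 17, and among those highest in LZ in 6 of 9. The CCAAT box stood in 18 of the 45, against 37.4% of all, and in 5, 6 and 7 promoters of the same groups. The TATA box stood in 7 of the 45, against 13.6% of all, and in 3, 3 and 1. These counts are a description with no test. Promoters are shown for H2al2a and H2al1n, histone genes that were highest in elongating spermatids, and for both genes with a CRE, in lower case with motif matches in capitals.
H2al2a (chr2:17996909-17997208, - strand): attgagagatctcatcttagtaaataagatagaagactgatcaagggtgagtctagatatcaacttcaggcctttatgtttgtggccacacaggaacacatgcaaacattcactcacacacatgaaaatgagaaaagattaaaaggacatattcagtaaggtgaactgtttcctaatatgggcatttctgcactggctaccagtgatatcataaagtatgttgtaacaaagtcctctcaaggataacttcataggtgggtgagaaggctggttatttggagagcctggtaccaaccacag
H2al1n (chrX:14210898-14211197, + strand): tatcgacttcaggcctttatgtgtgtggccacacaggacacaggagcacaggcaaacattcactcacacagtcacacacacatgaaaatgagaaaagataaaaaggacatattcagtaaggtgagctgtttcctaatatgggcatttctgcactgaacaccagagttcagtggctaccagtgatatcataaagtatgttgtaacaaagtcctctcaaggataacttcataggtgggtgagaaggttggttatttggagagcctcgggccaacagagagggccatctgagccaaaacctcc
Nsmce3 (chr7:64872991-64873290, - strand): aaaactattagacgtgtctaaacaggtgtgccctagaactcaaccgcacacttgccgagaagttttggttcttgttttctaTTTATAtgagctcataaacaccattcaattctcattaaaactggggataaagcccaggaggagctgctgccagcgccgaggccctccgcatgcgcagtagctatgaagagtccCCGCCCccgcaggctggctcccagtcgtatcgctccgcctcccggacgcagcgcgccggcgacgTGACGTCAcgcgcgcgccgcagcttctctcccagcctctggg
Tbcc (chr17:46890371-46890670, + strand): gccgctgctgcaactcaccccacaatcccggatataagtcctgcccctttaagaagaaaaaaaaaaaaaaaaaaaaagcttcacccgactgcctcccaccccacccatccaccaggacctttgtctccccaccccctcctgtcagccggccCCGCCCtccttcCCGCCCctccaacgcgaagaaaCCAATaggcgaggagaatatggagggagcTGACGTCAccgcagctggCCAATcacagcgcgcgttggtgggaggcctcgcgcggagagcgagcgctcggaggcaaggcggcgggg

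Neither H2al promoter held a match to the 4 motifs in this window. The start sites of the table lay 241 bp (H2al2a) and 64 bp (H2al1n) inside the assembled loci. Nearly all of the H2al2a window and part of the H2al1n window are thus within the locus. Sequence before the assembled 5′ ends was mostly not searched for H2al2a. In Tbcc the CRE began 36 bases before the start site, and in Nsmce3 it lay after the start site. No match says only that these letters are not in the window.

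The 15 libraries of the 5 stages held 90.6 to 137.8 M reads, RS23 159.2 M and PrmES 149.2 M. EES replicate 2 and LZ replicate 3 stood apart. The summed level of 3 RS markers (Acrv1, Spaca1, Acr) ranged from 6.44 to 322 RPKM in EES, highest in replicate 2, and from 176 to 201 RPKM in RS. The sum of 3 PD markers (Piwil1, Pou5f2, Ccna1) ranged from 11.9 to 81.5 RPKM in LZ, highest in replicate 3. It was 339.6 to 384 RPKM in PD and 267 to 331 RPKM in RS. Of the 3, Ccna1 had a higher mean in RS (274 RPKM) than in PD (112 RPKM), while Piwil1 and Pou5f2 were higher in PD. Markers of some other testis cells were higher in the LZ libraries. Their 8 Sertoli markers summed to 65.1 to 117 RPKM against 1.28 to 1.46 RPKM in PD, and their 5 spermatogonia markers to 32.8 to 45.9 RPKM against 2.34 to 2.58 RPKM. The Sertoli sums were 2.75 to 3.23 RPKM in RS, 6.83 to 22.3 RPKM in EES and 13.5 to 48.7 RPKM in LES. Spermatogonia sums were 6.04 to 7.56 RPKM in EES and 6.20 to 8.45 RPKM in LES. The part of such RNA in loci highest in EES or LES was not tested. Of the Sertoli markers 4 of 8 were under 0.1 RPKM in PD and 0 in LZ. The spermatogonia marker Gfra1 went the other way, with a mean of 0.116 RPKM in LZ and 0.608 RPKM in PD. Leydig markers summed to 4.38 to 6.61 RPKM in LZ and 1.84 to 2.42 RPKM in PD. Macrophage markers summed to 1.90 to 2.42 RPKM in LZ, 1.16 to 1.42 RPKM in PD, 3.75 to 4.11 RPKM in RS and up to 10.4 RPKM in LES.

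Low levels were the rule among the loci, and many reached 1 RPKM in LZ alone. The highest stage mean of a locus had a median of 1.56 RPKM, against 3.56 RPKM for all de novo genes, and it reached 10 RPKM in 333 loci and 100 RPKM in 67. The test took loci with 1 RPKM or more in 3 or more of the 15 libraries, which 1254 of 2223 did (56.4%, against 78.8% of all de novo genes). Of the tested loci 483 had their highest mean in LZ, 198 in PD, 193 in RS, 136 in EES and 244 in LES. Without EES replicate 2, an alternative added after seeing the data, EES had 199 and LES 170. The share for LZ was 38.5%, against 29.2% of all tested de novo genes, and the share for PD 15.8%, against 21.3%. The classes had these profiles, given as counts with no test. Of the 386 tested loci with no reference gene 190 were highest in LZ and 28 in PD, while of the 423 pseudogene loci 143 were highest in LZ and 113 in PD. Of the 156 protein-coding loci 49 were highest in RS.

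**Figure D1:**
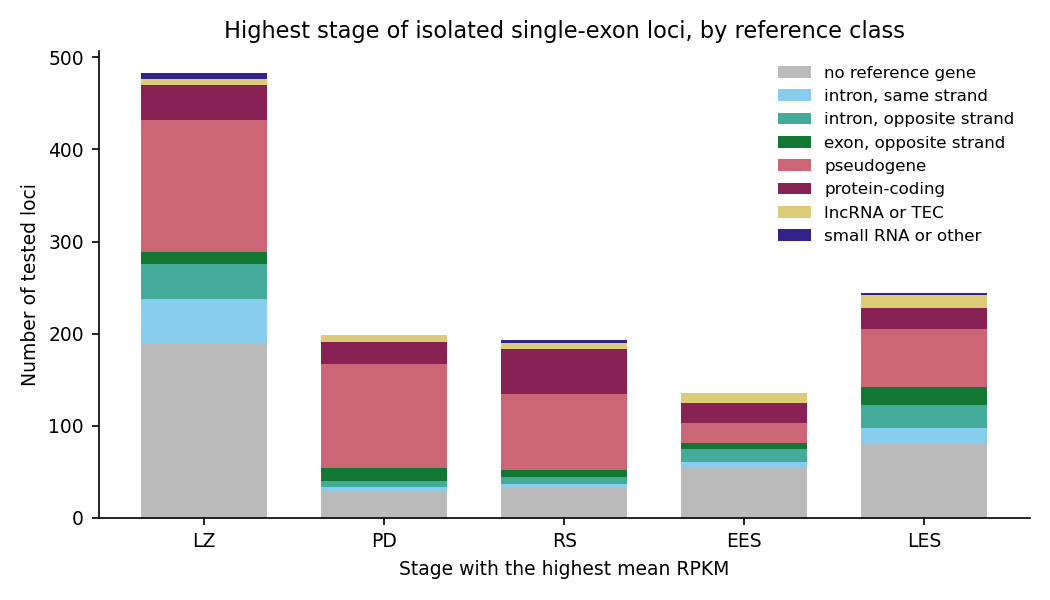
Number of tested isolated single-exon loci (y axis) by the stage with their highest mean level (x axis), stacked by the reference gene they meet. The LZ bar holds 483 loci, of which 190 meet no reference gene, and the PD bar 198, of which 113 are pseudogenes.

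Loci over 1 RPKM in LZ alone were 324 in number. They reached 1 RPKM in each of the 3 LZ libraries and in none of the 12 others, and 177 of them met no reference gene. The corresponding numbers were 29 for PD, 22 for RS, 0 for EES and 3 for LES. Over the 324 loci the median level was 2.86, 2.95 and 2.01 RPKM in the 3 LZ libraries, lowest in LZ replicate 3. It was at or under 0.0256 RPKM in each PD library and at or under 0.0291 RPKM in each RS library. Of the 324 loci 38.6 to 48.5% were at 0 in a PD library, so most had some reads there, and in RS23 20.1% were at 0. Their median length was 408 bp, and 25 of the 324 lay on the X. They were chosen by these levels, which are given with no test. The part of the Sertoli and spermatogonia RNA in this set was not tested.

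Summed over the loci, reads made up a smaller share of the LZ library totals than of the others. Taken over the reads in de novo genes, LZ stood apart from PD and RS only. The share was 1.01, 0.934 and 1.19% in LZ (1.04 ± 0.130%, SD, n = 3) and 1.96, 1.78 and 1.82% in PD (1.85 ± 0.0917%). It was 1.93 ± 0.0233% in RS, 1.91 ± 0.125% in EES and 1.85 ± 0.0743% in LES, each with n = 3. The LZ and PD libraries did not overlap, and p was 0.1 in an exact two-sided permutation test, the smallest that 3 against 3 libraries allow (adjusted p = 0.25 over 5 comparisons). The 9 spermatid libraries had a mean of 1.89% and the 6 spermatocyte libraries of 1.45%, with p = 0.011 in the exact two-sided permutation test and an adjusted p of 0.0549. This test exchanges libraries of different stages as if they were replicates, so its p does not measure a difference of spermatids from spermatocytes. The PD mean of 1.85% lay near those of RS, EES and LES, and only LZ was lower. The means of RS minus PD, EES minus RS and LES minus EES were 0.0735, -0.0193 and -0.0566 percentage points, with exact permutation p of 0.4, 0.8 and 0.6. Reads in all de novo genes came to 54.2 to 73.7% of the LZ libraries and 86.8 to 90.8% of the PD libraries, and of these reads the loci held 1.66% in LZ and 2.07% in PD. They came to 86.0 to 92.0% of the RS libraries, and in EES and LES to 97.9 to 107.8%, which passes the library total. As a share of the de novo reads the loci held 2.16% in RS, 1.84% in EES and 1.75% in LES. On this base the LZ libraries, at 1.61 to 1.72%, overlapped those of EES (1.69 to 2.09%) and LES (1.67 to 1.81%). This share was not tested. Whether a lower level comes from fewer cells of a type or from less RNA per cell cannot be told apart in such bulk samples. Pseudogene loci held 0.659 ± 0.0884% of the LZ reads and 1.14 ± 0.0525% of the LES reads, and protein-coding loci 0.130 ± 0.0397% in LZ and 0.773 ± 0.0240% in RS. These class shares were not tested.

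**Figure D2:**
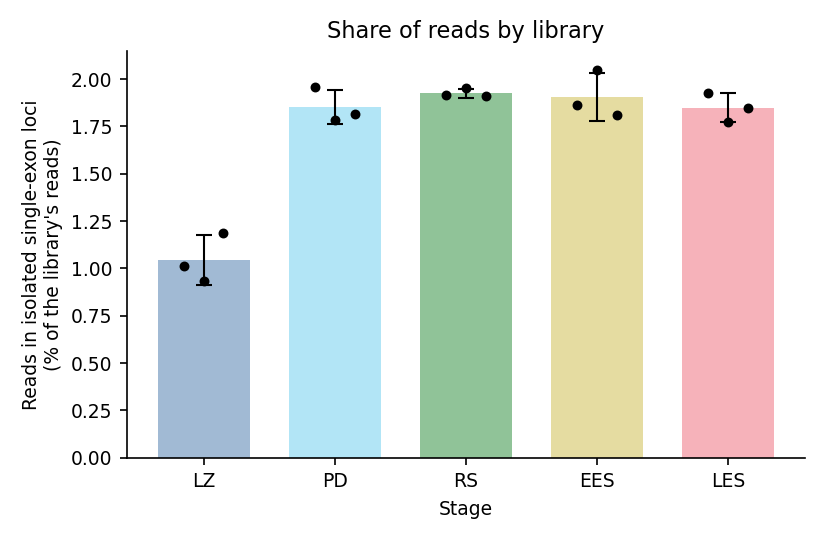
Share of each library's reads in isolated single-exon loci (y axis, percent) by stage. Bars are means, error bars SD and points the 3 libraries, and the LZ libraries lie at 0.934 to 1.19% while PD to LES lie at 1.78 to 2.05%.

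From LZ to PD 175 loci rose and 162 fell among the 809 that reached 1 RPKM in at least 3 libraries of the other stages. At an adjusted p under 0.05 (limma, Benjamini-Hochberg over all 21515 tested de novo genes) and a log2 fold change of at least 1 in size, 218 of the 1254 tested loci rose and 511 fell. Among all tested genes 26.6% rose and 32.3% fell. The median log2 fold change was -0.86 for the loci and -0.23 for all genes. These counts cannot be read as a result, since 361 of the 1254 loci entered the test only through their LZ level, which favoured a fall. With the level filter set instead on the libraries of the other 3 stages, an alternative chosen after seeing the data, 175 of 809 loci rose and 162 fell, which is 21.6 and 20.0%, against 29.1 and 23.9% of all genes under that filter. Of loci with no reference gene 23 rose and 37 fell of 183 under it. Pseudogene loci had 80 and 59 of 342, loci in same-strand introns 4 and 8 of 32, and those in introns of the opposite strand 7 and 7 of 49. Without LZ replicate 3 and EES replicate 2, 251 rose and 207 fell among 891 tested loci, where 317 of the 511 were no longer tested. Leaving out any 1 of the LZ libraries gave 181 to 187 falls.

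The loci with the largest falls had next to no reads in PD. They reached 1 RPKM in LZ alone, which fixed their fall, and so their values are given with no test. MSTRG.6408, 316 bp in an intron of Shc3 on the opposite strand (chr13:51537982-51538297, + strand), had 22.5, 17.6 and 11.4 RPKM in LZ and 0 reads in the PD libraries. With the 3 reads over the group that a count of 0 allows, it was at least 666-fold lower in PD. This bound and the counting intervals treat each read as independent. Low counts were often even, and whether both reads of a pair were counted was not examined. MSTRG.24251, 531 bp with no reference gene (chr8:92519672-92520202, + strand), had 32.5, 33.7 and 13.1 RPKM in LZ and 2 reads in PD, a ratio of 2593 with a 95% counting interval of 717 to 21421. MSTRG.6459, also without a reference gene (chr13:55204174-55204579, - strand), had 22.6, 26.3 and 12.02 RPKM in LZ and 2 reads in PD. In all 3 the lowest LZ library was replicate 3, and its value was above every PD library. Their levels in RS, EES and LES stayed at or under 0.265 RPKM.

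Loci that rose from LZ to PD included stretches in introns. MSTRG.6616, the pseudogene Gm4810 (chr13:64510097-64511598, + strand), had 0.0830, 0.0789 and 0.819 RPKM in LZ and 7.31, 8.42 and 10.5 in PD, a log2 fold change of 5.51 ± 0.68 (SE; limma adjusted p = 9.2e-06). It resembles Snw1, which encodes a splicing factor. MSTRG.16905 in an intron of Gabbr2, a subunit of the GABA-B receptor (chr4:46765204-46766036, - strand), had 0, 0 and 0.169 RPKM in LZ and 3.92, 2.69 and 2.08 in PD. MSTRG.12555, opposite to an intron of Nrxn2, a synaptic adhesion protein (chr19:6451524-6453367, - strand), had 0.0676, 0.0107 and 0.164 RPKM in LZ and 2.50, 2.69 and 3.19 in PD. LZ and PD libraries did not overlap at any of the 3, and the LZ library nearest to PD was replicate 3 each time. The log2 fold change of MSTRG.16905 was 6.75 ± 1.17 (limma adjusted p = 0.00018). MSTRG.12555 passed the filter only through PD, and its change of 5.41 ± 0.75 is a description.

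More X loci fell than rose in PD and more rose than fell in RS, as did X genes as a whole. Of 99 tested X loci 4 rose and 53 fell from LZ to PD, with a median log2 fold change of -1.92. Among all 676 tested X genes 507 fell, and the median was -5.02. Since 25 of the X loci reached 1 RPKM in LZ alone, their fall was fixed. With the filter on the other 3 stages 4 of 66 rose and 25 fell (37.9%), against 63.0% of all X genes under it. From PD to RS 51 of the 99 rose and 6 fell, with a median of 1.97, against 72.8% rising among all X genes and a median of 3.64. With the filter on the other stages 40 of 86 rose (46.5%) and 5 fell, against 69.2% rising among all X genes. Of 45 Y loci 14 were tested, of which 13 rose and 0 fell from PD to RS (median 5.90), as did 67 of all 71 tested Y genes (94.4%, median 5.44). Only 2 of the 14 reached 1 RPKM in 3 libraries of the other stages and 1 of these rose, so for the others the rise is not independent of the filter. Their highest mean was in RS for 12 of 14. Autosomal loci had medians of -0.77 and 0.19 in the 2 comparisons. With each library centred on its median 7 X loci rose and 51 fell in PD, and 51 rose and 10 fell in RS. Quantile normalization gave 4 and 49 in PD and 42 and 13 in RS, and 13 Y loci rose and 0 fell in RS under both. Whether X loci differ from other X genes was not tested.

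**Figure D3:**
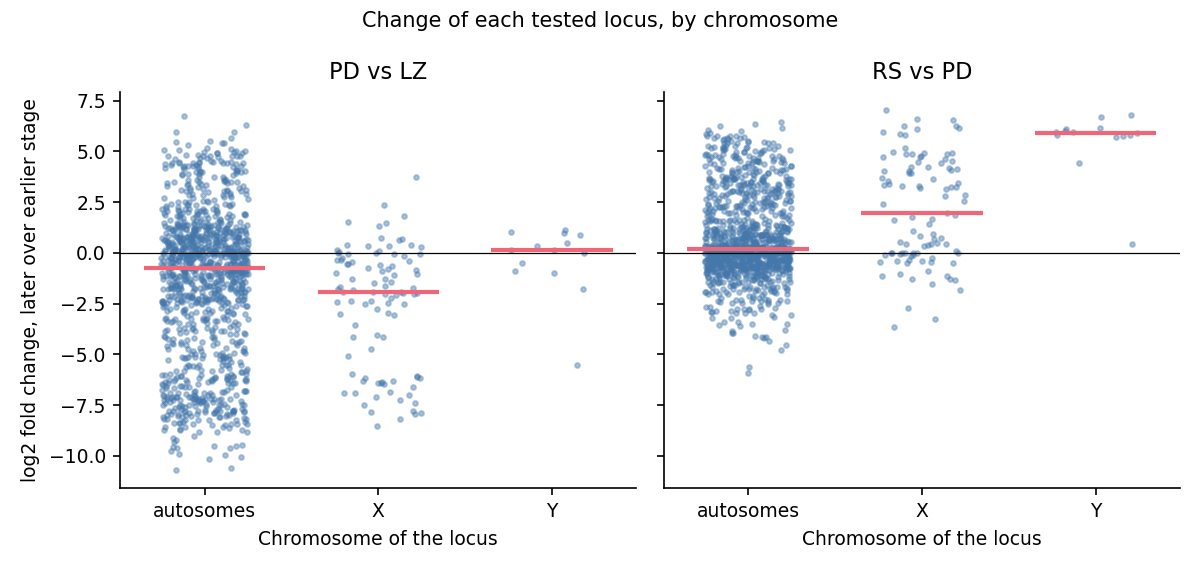
Log2 fold change of each tested locus (points) from LZ to PD and from PD to RS, for autosomes, X and Y, with the median as a line. The X median is -1.92 in the first panel and 1.97 in the second, and the Y median in the second is 5.90, where 2 of the 14 Y loci passed the filter without RS and PD.

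From PD to RS 356 of 1254 loci rose and 103 fell, against 30.2 and 12.6% of all tested genes. The medians were 0.25 and 0.23. Under median centring 334 rose and 186 fell, and under quantile normalization 218 rose and 234 fell, so the balance of rises and falls depends on the scaling. On log2(RPKM + 1) 150 rose and 55 fell, and without PD replicate 1 or 2 the falls were 61 and 63. Without LZ replicate 3 and EES replicate 2, 319 rose and 90 fell. With the filter on the other 3 stages 269 of 1040 rose and 73 fell, which is 25.9 and 7.02%, against 29.0 and 11.8% of all genes. All genes' median was 0.23 as deposited, -0.13 when centred and -0.17 under quantile normalization. The 3 largest rises lay on the X, at loci that passed the filter only through RS, so that they are described with no test. MSTRG.26861 (chrX:117014600-117015265, + strand) overlaps H2afb1, which encodes a short H2A variant of the testis, and had 0, 0 and 0.0875 RPKM in PD and 2.87, 2.61 and 2.89 in RS. MSTRG.26373 over the pseudogene Gm5073 (chrX:17622296-17627270, + strand) went from 0.0840, 0.0624 and 0.299 to 11.3, 13.4 and 11.8 RPKM, and MSTRG.26862 without a reference gene (chrX:117709391-117710540, + strand) from 0.0316, 0 and 0.101 to 2.72, 3.34 and 3.92 RPKM. PD and RS libraries did not overlap at any of these. Log2 fold changes were 7.03 ± 1.59, 6.57 ± 0.76 and 6.52 ± 1.16. In EES all 3 were highest in replicate 2, with 1.77, 3.37 and 5.18 RPKM against 0 to 0.481 RPKM in the other two. H2afb1 has a near-identical copy in H2afb3 (98.3% over 348 bp) and Gm5073 in Gm5123 (99.4% over 820 bp), so these levels are uncertain. The overlapped exons of H2afb1 and Gm5073 covered 52.3 and 16.5% of the loci.

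The longest of all loci was among the largest falls from PD to RS. MSTRG.17159 spans 56580 bp without an assembled intron, within an intron of Gm12648 (chr4:94275273-94331852, - strand). It had 0.539, 1.02 and 5.33 RPKM in LZ, 15.8, 16.5 and 16.9 in PD and 0.313, 0.281 and 0.212 in RS, with no overlap between PD and any other stage. The log2 fold change from PD to RS was -5.90 ± 0.63, a description, since the locus passed the filter only through PD. Its 343837 reads in PD were most of those in loci within same-strand introns, a class with 0.102 ± 0.00360% of the PD reads and 0.0106 ± 0.000275% of the RS reads. MSTRG.15959 overlaps Hist2h2bb, a replication-dependent H2B gene (chr3:96268920-96270215, + strand). Its level was 5.60, 3.77 and 2.38 RPKM in PD and 0.0715, 0.0448 and 0.0815 in RS (log2 fold change -5.64 ± 0.46, limma adjusted p = 5.8e-07). The exon covered 29.4% of this locus. Another gene matched a stretch of it at 98% identity or more, so its level is uncertain. MSTRG.1784 over Gm4739, the near-identical copy of Hmgb2, went from 96.3, 83.7 and 111 in LZ over 36.3, 35.03 and 26.8 in PD to 1.47, 1.46 and 0.738 RPKM in RS (-4.78 ± 0.45, limma adjusted p = 1.7e-06). Hmgb2 encodes a high mobility group protein of chromatin.

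From RS to EES 306 loci rose and 465 fell, against 23.0 and 47.3% of all tested genes. The median was -0.61 for the loci and -1.05 for all genes. Under median centring 369 rose and 376 fell, and under quantile normalization 341 and 384, so here too the balance depends on the scaling. All genes' median was -0.43 when centred and -0.46 under quantile normalization. On log2(RPKM + 1) 252 fell, and without LZ replicate 3 and EES replicate 2, 298 rose and 423 fell. With the filter on the other 3 stages 266 of 1100 loci rose and 408 fell, which is 24.2 and 37.1%, against 23.7 and 47.0% of all genes. Of these, 95 of 327 loci with no reference gene rose and 86 fell, and 54 of 399 pseudogene loci rose and 195 fell. Over all tested loci of these classes, median centring turned 113 rises and 100 falls into 125 and 83 for the first, and 56 and 210 into 89 and 167 for the second. Largest of the rises was MSTRG.3149, the glutamine synthetase pseudogene Glns-ps1 (chr11:19720299-19721541, + strand), from 0.0969, 0.0642 and 0.170 RPKM in RS to 36.8, 14.9 and 41.2 in EES and 46.2, 47.4 and 37.04 in LES. Its log2 fold change to EES was 7.97 ± 0.46 (limma adjusted p = 6e-08), and its closest relative Glul matched at 96.8% over 1126 bp. MSTRG.24649, opposite to an intron of Gm20388 (chr8:120517306-120518131, - strand), went from 0.0449, 0.0176 and 0.0365 to 9.65, 3.13 and 7.55 RPKM. MSTRG.15821, opposite to an intron of the potassium channel gene Kcnn3 (chr3:89605441-89605824, - strand), had 2 reads in RS and 3.45, 1.18 and 2.90 RPKM in EES, a ratio of 183 with a 95% counting interval of 50.3 to 1520. EES replicate 2 was the lowest EES library at all 3 and still above every RS library.

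Largest among the falls from RS to EES were 1 locus at a lncRNA and 2 in a multicopy family. They reached 1 RPKM in RS alone, which fixed their fall, and have no test. MSTRG.1125 at E330020D12Rik (chr1:153413539-153414846, - strand) had 1.64, 2.13 and 2.83 RPKM in RS and 2 reads in EES, a ratio of 451 with a counting interval of 124 to 3727. The exon of this lncRNA covered only 6.80% of the locus. MSTRG.7169 at Gm3500 and MSTRG.7125 at Gm3005, both on chromosome 14, are protein-coding by GENCODE. Gm3500 had 2.20, 3.18 and 2.59 RPKM in RS and 0, 0.151 and 0 in EES. Gm3005 had 2.31, 2.27 and 2.05 RPKM in RS and 0, 0.0772 and 0.0309 in EES. These genes have 16 and 14 near-identical copies, among which reads cannot be told apart. The RS and EES libraries did not overlap at any of the 3.

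Between EES and LES 0 of 1254 loci passed in either direction by limma, where 0.0% of all tested genes rose and 0.0% fell. At an unadjusted p under 0.05 there were 81 loci, and 1088 of all 21515 tested genes. Without LES replicate 1, 3 loci rose and 1 fell. Over the 5 stages 1197 loci differed by limma's F test with stage means at least 1 apart on the log2 scale, against 97.2% of all tested genes.

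Among protein-coding loci with no near-identical copy were genes highest in PD or RS and genes highest in elongating spermatids. Of 99 tested ones, 40 rose and 38 fell from LZ to PD, 39 rose and 9 fell from PD to RS, and 25 rose and 52 fell from RS to EES. The background is that of all genes given above. With the filter on the other 3 stages the counts were 35 and 25 of 78, 33 and 7 of 75, and 24 and 47 of 90. Of the 43 that reached 10 RPKM in a stage, 1 was highest in LZ, 7 in PD, 17 in RS, 11 in EES and 7 in LES. Without EES replicate 2 these were 1, 7, 20, 9 and 6. The loci named in the accounts of histone, elongating and PD to RS genes, other than H2al2a, 1700024P04Rik, Prps1l1, Nkapl and Pabpc2, were chosen for their level after the values were seen.

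H2A variant genes were among the highest loci of elongating spermatids. H2al2a, which encodes a histone H2A variant loaded onto chromatin before protamines, lay in MSTRG.13314 (chr2:17996410-17997199, - strand). Its level was 10.01, 12.1 and 18.1 RPKM in RS, 1256, 518 and 981 in EES and 1048, 995 and 1017 in LES, and 0.943, 0.662 and 2.46 in PD. All EES and LES libraries lay above all others, with a log2 fold change of 6.05 ± 0.43 from RS to EES (limma adjusted p = 1.5e-07). H2al1n, a related H2A variant on the X in MSTRG.26365 (chrX:14211084-14211669, + strand), had 2.69, 3.02 and 4.46 RPKM in RS and 302, 119.7 and 248 in EES (5.97 ± 0.43, limma adjusted p = 1.6e-07), and its sequence matched H2al1k at 94.4% over 514 bp. MSTRG.6927 at 1700024P04Rik (chr13:98984073-98984790, - strand) had 17.9, 15.6 and 24.9 RPKM in RS and 1107, 559 and 986 in EES (5.47 ± 0.35, limma adjusted p = 9.5e-08). The PD libraries lay below the LZ libraries at all 3 loci, and the level in LZ was 9.93 to 13.9 RPKM for H2al2a. The 5 EES and LES markers, Tnp1, Tnp2, Prm1, Prm2 and Odf1, likewise summed to 769 to 1284 RPKM in LZ and 63.5 to 251 RPKM in PD. The part of RNA from elongating cells in the LZ values was not tested.

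Genes other than histones had this profile too. Zcchc13, an X-linked zinc finger gene (MSTRG.26814), had 0.165, 0.148 and 0.534 RPKM in PD, 7.40, 6.46 and 7.71 in RS and 95.9, 55.5 and 101 in EES. Ubqln5, of the ubiquilin family (MSTRG.22719), had 4.201, 4.91 and 7.72 RPKM in RS and 71.01, 48.8 and 66.8 in EES. Aldoart1, a retrogene of aldolase A (MSTRG.17078), had 7.61, 8.42 and 10.01 RPKM in RS and 37.9, 29.8 and 37.6 in EES, at a locus of which its exon covered 23.1%. In each of the 3 the EES libraries lay above all RS libraries, with log2 fold changes of 3.50 ± 0.39, 3.50 ± 0.47 and 2.02 ± 0.35 (limma adjusted p = 4.4e-06, 2e-05 and 0.00017). Kif2b, a kinesin that takes microtubules apart (MSTRG.4184), had 1.10, 1.13 and 2.97 RPKM in PD, 45.9, 56.5 and 58.8 in RS and 52.1, 198 and 73.1 in EES. Its rise came from PD to RS (5.10 ± 0.48, limma adjusted p = 1.9e-06), and the change to EES did not pass (adjusted p = 0.16). Hsfy2, a heat shock factor-like gene (MSTRG.380), was high in EES replicate 2, with 2.35, 129.5 and 9.15 RPKM in the 3 EES libraries and 20.2, 13.03 and 22.8 in RS.

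The other group was high in PD and RS. Of the 25 intronless germ cell genes that had been listed, 3 were found among the loci. Prps1l1, a phosphoribosyl pyrophosphate synthetase of the testis (MSTRG.5107, chr12:34984143-34987977, + strand), had 2.51, 2.86 and 14.3 RPKM in LZ, 124, 113 and 115 in PD and 104, 102 and 98.95 in RS, and 5.81, 32.3 and 9.39 in EES. Nkapl, a germ cell relative of the Notch corepressor Nkap (MSTRG.6065), had 48.3, 44.8 and 53.9 RPKM in PD and 0.598, 6.75 and 1.72 in EES. Pabpc2, a poly(A)-binding protein (MSTRG.11965), had 51.2, 52.9 and 62.2 RPKM in PD and 10.9, 33.7 and 13.02 in EES. The overlapped exons covered 43.7% (Prps1l1), 24.2% (Nkapl) and 18.8% (Pabpc2) of these loci. All 3 rose from LZ to PD, by 4.64 ± 0.62, 4.25 ± 0.76 and 4.54 ± 0.48 on the log2 scale (limma adjusted p = 1.9e-05, 0.00022 and 2.7e-06). They fell from RS to EES by limma as well, with log2 fold changes of -3.07 ± 0.62, -4.10 ± 0.76 and -2.05 ± 0.48. LZ replicate 3 was the highest LZ library and EES replicate 2 the highest EES library at each. Pbp2, of the phosphatidylethanolamine-binding family (MSTRG.21332), had 221, 198 and 190.5 RPKM in RS and 9.51, 24.1 and 12.2 in EES. Rasl2-9, a relative of Ran (MSTRG.21540), had 144, 114 and 113 RPKM in RS and 8.17, 18.4 and 9.38 in EES. Csl, a relative of citrate synthase (MSTRG.2649), had 60.7, 64.8 and 55.8 RPKM in RS and 4.35, 29.5 and 6.36 in EES. RS and EES libraries did not overlap at any of these. Rimbp3, a protein of the spermatid manchette (MSTRG.9707), had 21.4, 41.2 and 23.2 RPKM in EES against 62.4, 86.2 and 70.6 in RS (-1.41 ± 0.44, limma adjusted p = 0.01).

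**Figure D4:**
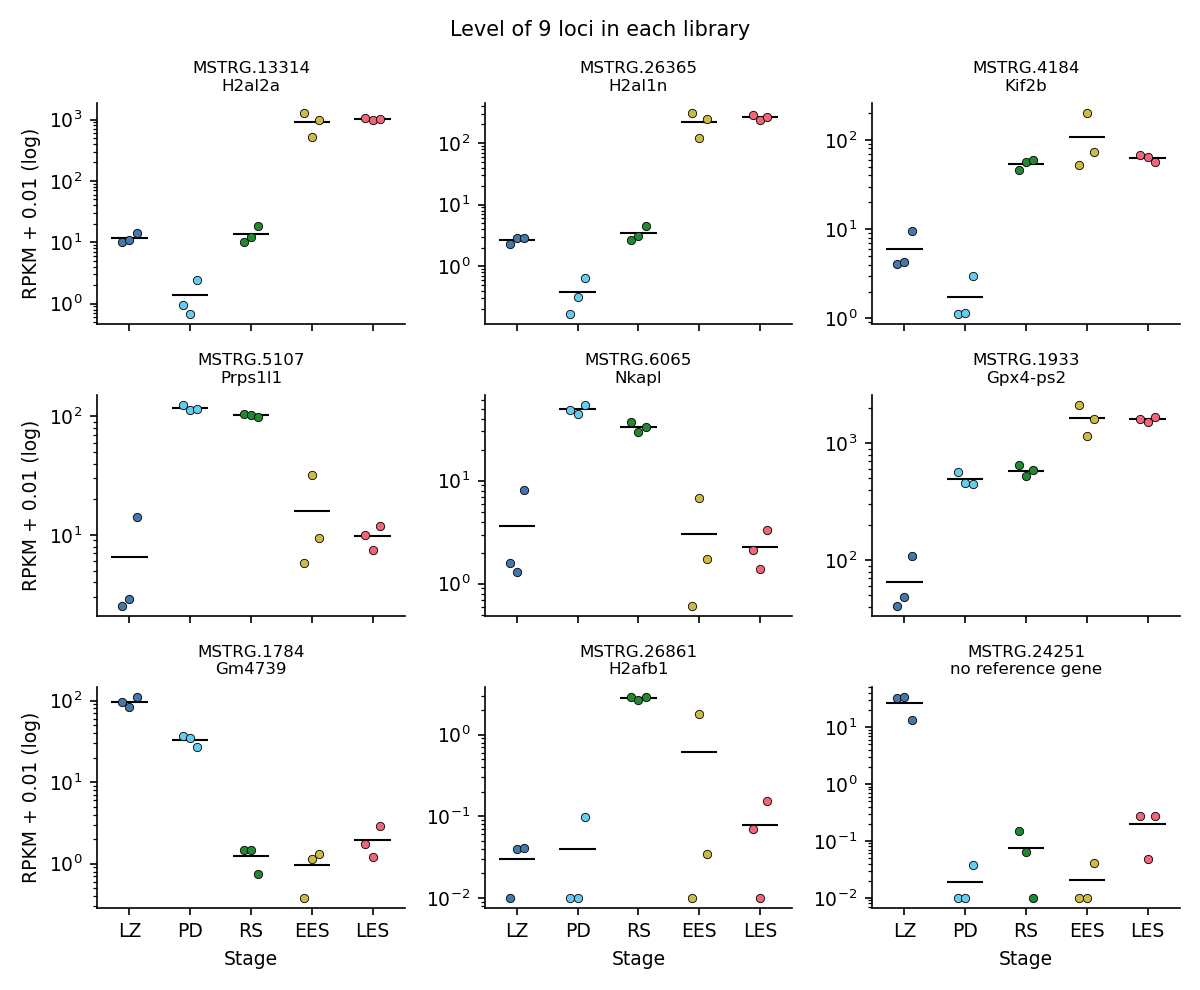
Level of 9 loci in each of the 15 libraries (points; y axis RPKM plus 0.01 on a log scale; line, stage mean). H2al2a and H2al1n are highest in EES and LES, Prps1l1 and Nkapl in PD and RS, and MSTRG.24251 in LZ.

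Loci with near-identical coding relatives mostly had stage profiles close to those of the relatives. For 306 tested loci the most alike coding gene matched at 98% identity or more over at least 80% of the stretch and had its own values in the authors' table of reference genes. The correlation of the deposited log2 values over the 15 libraries had a median r of 0.96 with quartiles of 0.89 and 0.98. It was over 0.9 for 224 loci and under 0.5 for 15, and in 247 of the 306 (80.7%) the highest stage was the same. This is a description over libraries that share stages and reads, and with identical sequence it does not show which copy was transcribed. Levels of the tables are set side by side and were not tested against each other.

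The locus with the highest stage mean of all was of this kind. MSTRG.1933 over Gpx4-ps2 (chr10:45875283-45876093, + strand) had 40.5, 48.02 and 108 RPKM in LZ, 570.0, 456 and 452 in PD, 646, 520.0 and 586 in RS, 2113, 1152 and 1621 in EES and 1612, 1520.3 and 1663 in LES. Gpx4, the glutathione peroxidase that protects membrane lipids and is abundant in sperm, had 22.3 ± 12.5, 169 ± 19.1, 197 ± 15.1, 541 ± 168 and 579 ± 19.4 RPKM (SD, n = 3 each) in the same order of stages. Dynlt1-ps1 in MSTRG.21333 (chr6:135349071-135349788, - strand) had 1285, 1045 and 1149.6 RPKM in PD and 9.80, 449.6 and 43.5 in EES, and Dynlt1a, a dynein light chain gene, 62.8, 50.8 and 62.7 and 0.813, 25.6 and 2.60 RPKM. EES replicate 2 was the lowest EES library for Gpx4-ps2 and Gpx4 and the highest for Dynlt1-ps1 and Dynlt1a. Copies of ribosomal protein genes were also among the 3 highest loci of a stage. MSTRG.16211 over Gm4332, a copy of Rps20, had 273 ± 24.2 RPKM in LZ and 816 ± 76.02 in LES. MSTRG.6768 over Gm4149, a copy of Rpl37a, had 225 ± 15.9 RPKM in LZ and 323 ± 34.2 in RS. MSTRG.20648 over Gm9794, a copy of Rpl23, had 218 ± 19.1 RPKM in LZ and 151 ± 7.52 in RS (SD, n = 3 each).

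**Figure D5:**
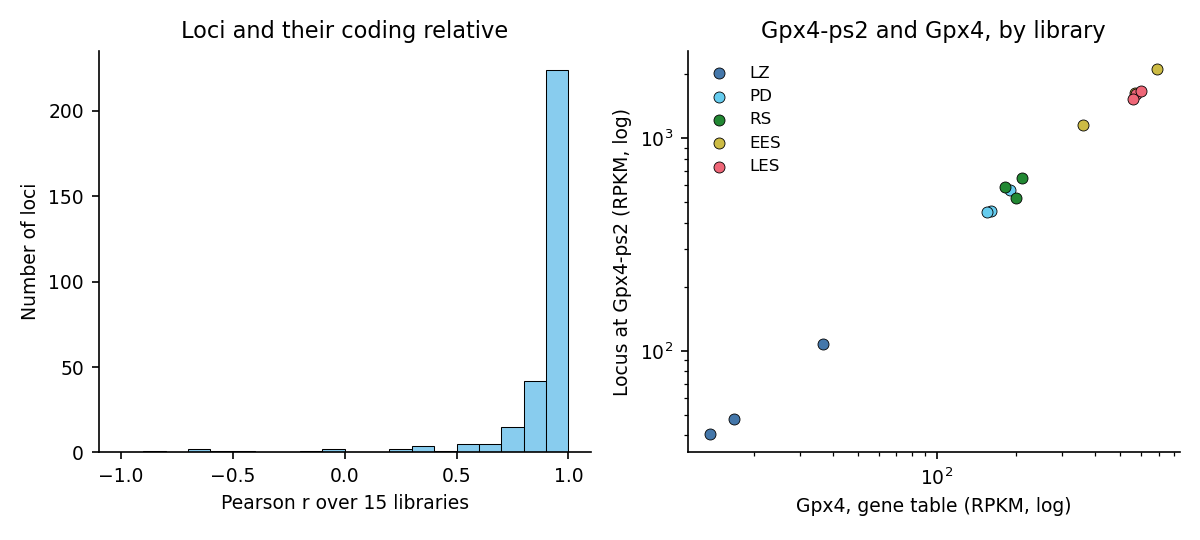
Left, number of loci (y axis) by the correlation with their near-identical coding relative over 15 libraries (x axis, Pearson r), for 306 loci with a median of 0.96. Right, level of MSTRG.1933 at Gpx4-ps2 against that of Gpx4 in each library (both axes RPKM, log scale), where points of LZ lie lowest and those of EES and LES highest.

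The 2 single libraries had smaller shares of reads in loci with copies. Loci with a near-identical copy held 0.537% of the reads in RS23 and 0.432% in PrmES, against 0.976 to 1.00% in the RS libraries and 0.937 to 1.06% in EES and LES. Protein-coding loci held 0.664% in RS23 and 0.540% in PrmES, which compares with 0.757 to 0.800% in RS and 0.509 to 0.781% in EES and LES. MSTRG.6768, the copy of Rpl37a, had 20.8 RPKM in RS23 and 23.4 in PrmES, while the 15 other libraries ranged from 208 to 376 RPKM. Nkapl (MSTRG.6065) had 48.5 RPKM in RS23, and H2al2a (MSTRG.13314) had 3.46 in RS23 and 557 in PrmES. Exons of small RNA or other genes, at 16 loci, held 0.160% of the RS23 reads and at most 0.0157% of any other library. With 1 library each there is no test.

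Loci that met no reference gene were mostly faint, and most of the strong ones were highest in LZ or in elongating spermatids. Only 28 of the 923 reached a stage mean of 10 RPKM, and these were chosen by that level. Their highest stage was LZ for 12, PD for 2, RS for 0, EES for 4 and LES for 10. Without EES replicate 2 EES had 7, LES 6 and RS 1. On the X, MSTRG.26837 (chrX:108484379-108486718, + strand), 347903 bp from the next assembled gene, had 0.0776, 0.119 and 0.236 RPKM in PD, 1.41, 0.639 and 1.04 in RS and 38.6, 30.2 and 47.2 in EES. MSTRG.26379, likewise on the X (chrX:19112254-19113330, + strand), had 2.05, 2.09 and 2.89 RPKM in RS and 30.7, 21.5 and 32.1 in EES. Both rose from RS to EES, by 5.26 ± 0.37 and 3.58 ± 0.52 on the log2 scale (limma adjusted p = 1.5e-07 and 3.7e-05). MSTRG.26499, the third X locus named (chrX:48009973-48010471, + strand), went the other way, with 28.4, 29.1 and 65.1 RPKM in LZ, 94.7, 103 and 89.7 in PD and 7.95, 13.1 and 10.1 in RS. Its PD libraries lay above all others. MSTRG.1984 on chromosome 10 (chr10:56504463-56509267, + strand) had 62.2, 60.9 and 62.5 RPKM in PD, 37.1, 43.7 and 38.6 in RS and 0.738, 19.1 and 1.95 in EES, with replicate 2 again the highest in EES. Whether these transcripts encode protein was not examined.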

How the data were processed

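RNA-seq of 17 libraries of sorted mouse male germ cells was used. The authors assembled transcripts with StringTie 1.3.4d, per the file headers, and Trim Galore, STAR and GRCm38/mm10 are named in the submitters' processing notes. Positions in the deposited assembly are in GRCm38 coordinates. The authors deposited log2 values, equal to log2(100 RPKM + 1), for de novo and reference genes. How reads with several matches were counted is not given in the sources used here.

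RPKM was computed back as (2 to the value, minus 1) divided by 100, and whole reads were recovered in 100% of values. Library totals were 90.6 to 159.2 M reads. The deposited log2 values, with a pseudocount of 0.01 RPKM, were fitted with limma 3.58.1 (R 4.3.3) over the 15 libraries of the 5 stages, after a filter of 1 RPKM in at least 3 libraries. A call needed an adjusted p under 0.05 (Benjamini-Hochberg over all tested genes) and a log2 fold change of at least 1 in size. A fold change on this scale understates that of low genes. Tests were checked on simulated data. Copies were sought with BLAST 2.17.0 against GENCODE M21 transcripts, and summaries were made with Python 3.11.15, pandas 2.3.3, numpy 2.4.6 and scipy 1.17.1. Intervals and floors cover counting error only and treat each read as independent. If both reads of a pair were counted, the intervals are too narrow and the floors too strict.

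Loci were named by a rule, namely per comparison up to 3 largest rises and 3 largest falls among called loci with separate ranges in both stages and 2 RPKM or more in the higher one, the 3 highest loci per stage, the loci at the edge of the distance rule, and members of a list of 25 intronless germ cell genes. The members and lists were chosen with earlier results of these data known. The alternatives were no filter, log2(RPKM + 1), median centring, quantile normalization, the replicate block, a distance of 10000 bp, each library left out in turn, and, added after seeing the data, a filter on the other 3 stages and highest stages without EES replicate 2. The filter on the other stages kept the fit and its adjusted p-values and counted fewer loci.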

Additional observations from a re-analysis of the deposited data

How the results depend on the processing

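With no filter on levels, 395 loci rose and 883 fell from LZ to PD, 688 and 179 from PD to RS, 829 rose from RS to EES, 1 rose from EES to LES, and 2144 differed over the stages. Shares of all genes under the settings of this section, other than the filter on the other 3 stages, are not given. The counts show how far calls moved with the setting and cannot be set against other genes. On log2(RPKM + 1), 150 rose and 55 fell from PD to RS and 252 fell from RS to EES. Median centring gave 186 falls from PD to RS. Quantile normalization gave 218 rises and 234 falls there, and 1 rise and 1 fall from EES to LES. The filter on the other 3 stages gave 162 falls from LZ to PD, and leaving out LZ replicate 3 and EES replicate 2 gave 207. Fewer loci were tested there, and 182 of the 207 were among the original 511.

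Leaving out 1 library at a time gave 180 to 233 rises and 181 to 532 falls from LZ to PD, 285 to 355 and 61 to 117 from PD to RS, 285 to 306 and 371 to 506 from RS to EES, 0 to 3 and 0 to 1 from EES to LES, and 861 to 1195 over the stages. Without LZ replicate 1, 2 or 3 the falls from LZ to PD were 181, 184 and 187, where at least 925 loci were tested. Without PD replicate 1 or 2 the falls to RS were 61 and 63. The mean read share was 0.973 to 1.10% for LZ, 1.80 to 1.89% for PD, 1.91 to 1.93% for RS, 1.84 to 1.96% for EES, and for LES 1.81 to 1.89%. With the replicate block the counts were 218 and 517, 357 and 102, 304 and 463, 0 and 0, and 1200, so the block moved no count by over 1.5 times. Same-numbered libraries had correlations of their deviations of -0.24 to 0.17 over 30 pairs. These values cannot show whether such libraries had animals or a day of sorting in common. The main fit used no pairing.

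As a share of all de novo reads the mean was 1.66% in LZ, 2.07% in PD, 2.16% in RS and 1.75% in LES. The next values are shares of the library reads, not of the de novo reads. Without the 5 loci with the most reads the library share was 1.52% in PD, 1.54% in RS, 1.58% in EES and 1.55% in LES. At a distance of more than 10000 bp the library share was 0.809% in LZ, 1.54% in PD, 1.61% in RS, 1.66% in EES and 1.63% in LES. The cause of each shift was not tested, except that alternatives with another filter test other numbers of loci. The 18 named calls kept their direction and their side of the threshold in all 357 values of the alternatives. They had been picked from these data as the largest called changes with separate ranges, so this is no independent support for any of them. In addition, 11 of them passed the filter only through the stages compared, which fixed their direction. Loci near 1 RPKM rest on few reads.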
